A study of Mus musculus with 16 samples.

Results

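Purinergic receptors and ectonucleotidases, the proteins that sense extracellular ATP, its breakdown products and adenosine and the enzymes that convert one into the other, were examined in spinal cord RNA through 9 genes: *P2rx4*, *P2rx7*, *P2ry1*, *P2ry6*, *Adora1*, *Adora2a*, *Adora3*, *Entpd1* and *Nt5e*. The genes were chosen by name, with earlier results of these data known, and all 9 were among the 18167 genes of the table. RNA-Seq of whole spinal cord was made from 16 transgenic mice on a C57BL/6N background, 1 library per mouse, labelled as males. Mutant mice carried human profilin1 with the G118V change, which causes an ALS-like disease, and the other line carried wild-type human profilin1. Both transgenes were driven by the mouse prion protein promoter, so all groups expressed human profilin1 on top of the mouse gene and none was free of a transgene.

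The groups were wild-type young (WY, 3 mice of 50 days), mutant young (MY, 3 pre-symptomatic mice of 50 days), wild-type old (WO, 3 mice of 190 days and 2 of 294 days) and mutant old (MO, 5 end-stage mice of 198, 190, 245, 224 and 175 days). No mouse received a treatment. The library batches were 2, and batch 2 held MO4, MO5, WO4 and WO5 only, so both WO mice of 294 days belonged to it. Values are log2(1 + FPKM), where FPKM is sequenced fragments scaled by transcript length and by library size, adjusted by the authors for batch. The table does not give the number of fragments behind each value.

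The library labelled MO5 went against its label of male. *Xist*, the RNA of the inactive X chromosome, was at 3.21 in MO5 and at no more than 0.37 in the other 15 libraries, and *Ddx3y*, a gene of the Y chromosome, was at 1.95 in MO5 and at 4.06 or more in the others. Calls were therefore also made without MO5. The WO4 library stood apart in *Mbp*, a myelin gene, at 5.36 against a range of 12.16 to 14.22 in the other mice. Markers of the labelled tissue were present: *Snap25* of neurons lay between 10.08 and 10.72, *Gfap* of astrocytes between 9.30 and 11.41, and *Chat* of motor neurons between 3.08 and 4.04 on the log2(1 + FPKM) scale. The lowest *Chat* was that of WY1, below every MO mouse, which were at 3.14 to 3.40.

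ATP released by active or damaged cells opens P2X ion channels and, with ADP and UDP, activates P2Y receptors that couple to G proteins. Ectonucleotidases on the cell surface then remove its phosphates in turn, first to AMP and finally to adenosine, which acts on its own family of receptors. In the spinal cord these receptors are known on neurons and glia, and several of them, with *Entpd1*, are known from microglia.

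The levels of the 9 genes covered a wide range. Taken as FPKM at the group mean, *Adora1* was the most abundant in WO at 49.2, followed by *P2rx4* at 11.0, *P2ry1* at 5.79, *P2rx7* at 4.88, *Entpd1* at 3.09 and *Nt5e* at 2.10. The lowest levels in WO were those of *P2ry6* at 0.947, *Adora2a* at 0.432 and *Adora3* at 0.371. In that order *Adora2a* and *Adora3* were not separated, since their WO mice overlapped at 0.32 to 0.62 and 0.35 to 0.51 on the log2(1 + FPKM) scale, and the WO mice of *P2ry1* and *P2rx7* overlapped as well. In MO the order was different. *P2rx7* at 7.09 FPKM and *Entpd1* at 5.46 then stood above *P2ry1* at 4.71, although the MO mice of *Entpd1* and *P2ry1* overlapped. *P2ry6* at 4.23 stood above *Nt5e* at 1.98, with no overlap among the MO mice.

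At end stage, *P2ry6* and *Entpd1* rose past both thresholds, which were an FDR of 0.05 and a fold change of 1.5 in either direction, whether MO was set against MY or against WO. By the FDR alone *P2rx4*, *P2rx7* and *Adora3* were also higher and *P2ry1* was lower in both comparisons. *Adora1*, *Adora2a* and *Nt5e* did not pass the FDR in either. Comparisons were fitted with limma over all genes, with Benjamini-Hochberg adjustment. In MY vs. MO, 2 of 9 genes were differentially expressed by both thresholds, against 4.9% of all genes, and 6 of 9 passed the FDR alone, against 25.6%. In WO vs. MO the counts were again 2 and 6 of 9, against 4.6% and 27.9% of all genes. MO mice are in both comparisons, so the comparisons are not independent of each other.

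**Figure D1:**
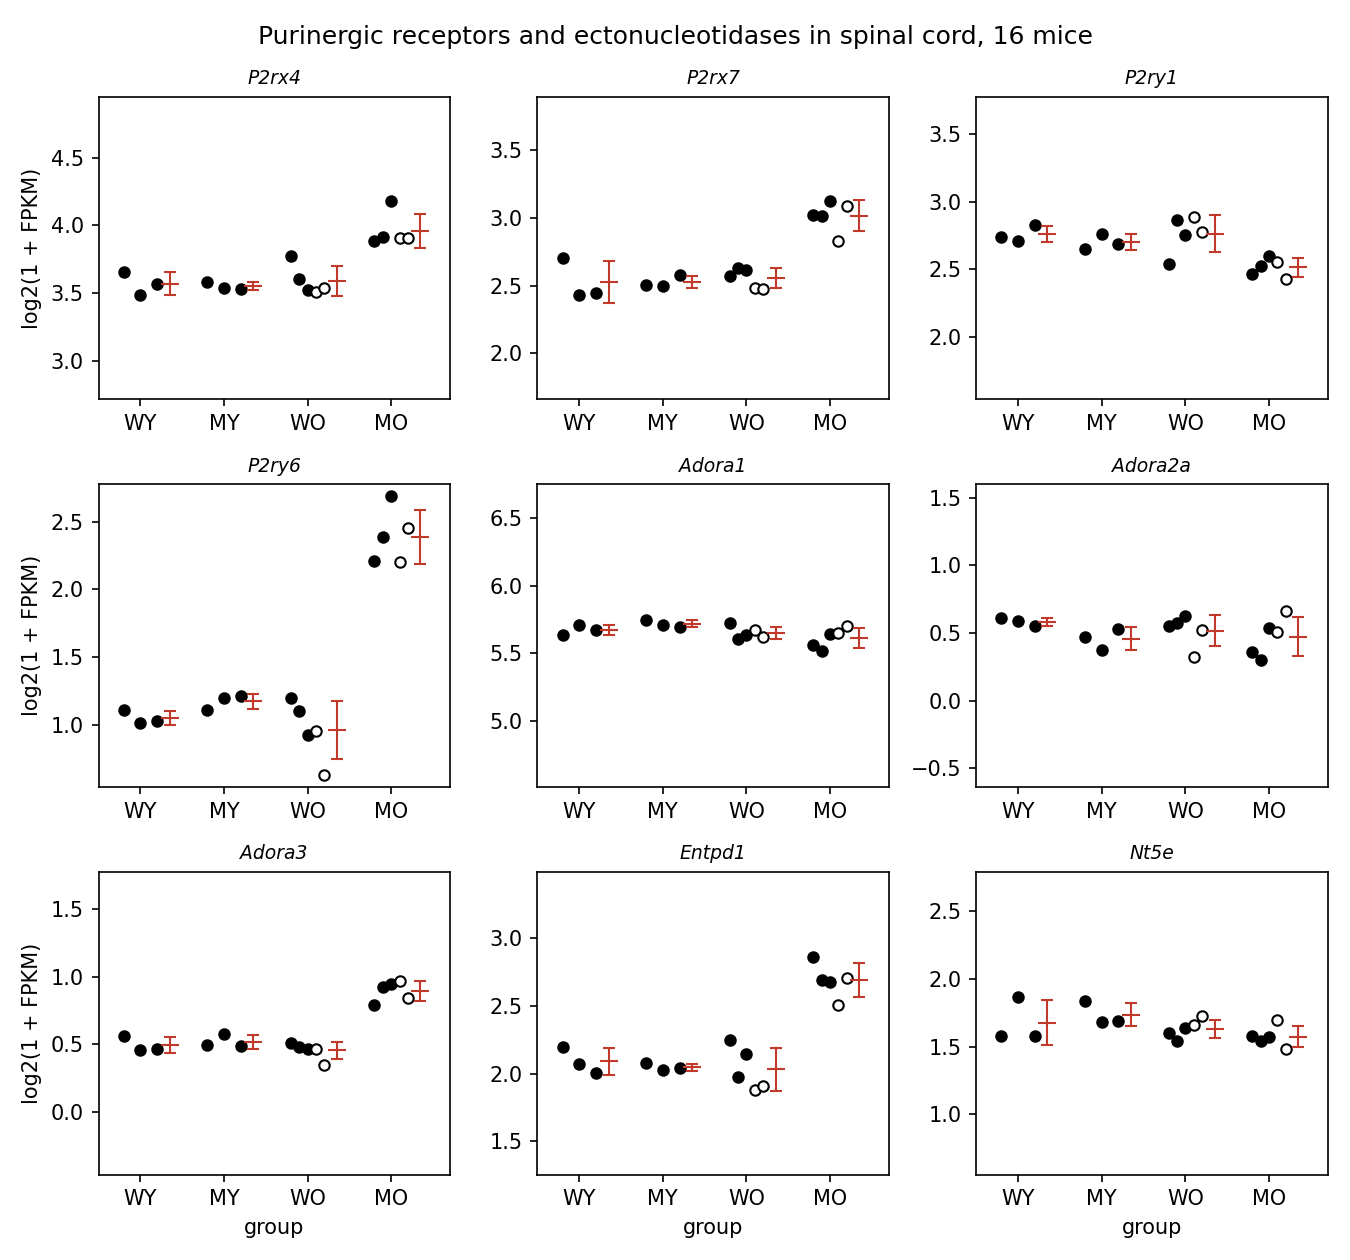
Expression of the 9 genes as log2(1 + FPKM) in each of 16 mice by group (x axis), on y axes that all span the same range. Filled circles are batch 1 mice, open circles batch 2 mice, and red marks the group mean with its SD; the MO mice lie above all others for *P2rx4*, *P2rx7*, *P2ry6*, *Adora3* and *Entpd1*.

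Both P2X channels were higher in every MO mouse than in any other mouse. *P2rx4*, an ATP-gated cation channel, was at 3.88, 3.91, 4.18, 3.91 and 3.91 in MO1 to MO5, against 3.58, 3.54 and 3.53 in MY, 3.77, 3.60, 3.52, 3.51 and 3.54 in WO and 3.65, 3.49 and 3.57 in WY. MO3, at 245 days the oldest MO mouse, was the highest, and the other MO mice lay close together just above the highest WO mouse. The change of *P2rx4* was 0.41 ± 0.0700 (SE) on the log2 scale from MY to MO, with a limma FDR of 0.00418, and 0.37 ± 0.0692 from WO to MO, with a limma FDR of 0.00268. In FPKM, the MO mean was 1.32 times the WO mean.

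*P2rx7*, an ATP-gated channel that opens at high ATP concentrations and is an upstream step of inflammasome activation, was at 3.02, 3.02, 3.13, 2.83 and 3.09 in MO. It was at 2.50, 2.50 and 2.58 in MY, 2.57, 2.63, 2.61, 2.48 and 2.48 in WO and 2.70, 2.43 and 2.44 in WY. The highest mouse outside MO was WY1, and it lay below MO4, the lowest MO mouse. *P2rx7* differed by 0.49 ± 0.0671 (SE) in MY vs. MO (limma FDR 0.00149) and by 0.46 ± 0.0585 in WO vs. MO (limma FDR 0.000257), so neither difference reached the fold change threshold. Bulk RNA cannot tell more cells of a type from more RNA per cell, nor fewer cells from less RNA per cell, which holds for each gene described here.

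The P2Y receptors moved in opposite directions. *P2ry6*, a receptor for UDP, was at 2.21, 2.38, 2.69, 2.20 and 2.45 in MO, against 1.11, 1.19 and 1.21 in MY, 1.20, 1.10, 0.93, 0.95 and 0.63 in WO and 1.11, 1.01 and 1.02 in WY. All MO mice lay well above every other mouse, and WO5 was the lowest of all. *P2ry6* rose by 1.21 ± 0.107 (SE; 95% CI 0.97 to 1.46) from MY to MO with a limma FDR of 0.000314, and by 1.43 ± 0.118 (95% CI 1.16 to 1.69) from WO to MO with a limma FDR of 2.41e-05. Taken as FPKM at the group mean of the log2 values, *P2ry6* in MO was 3.37 times that in MY and 4.47 times that in WO. It had the largest change among the 9 genes in both comparisons.

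*P2ry1*, a receptor for ADP, was at 2.47, 2.52, 2.60, 2.56 and 2.43 in MO and 2.65, 2.76 and 2.68 in MY. The WO mice were at 2.54, 2.87, 2.76, 2.89 and 2.77 and the WY mice at 2.74, 2.71 and 2.83. MO lay below MY in every mouse, but WO1 fell within the range of MO, so MO and WO overlapped. *P2ry1* differed by -0.19 ± 0.0504 (SE) in MY vs. MO (limma FDR 0.0282) and by -0.25 ± 0.0655 in WO vs. MO (limma FDR 0.0164). Without MY1, MY2 or MY3 it no longer passed in MY vs. MO, with limma FDRs of 0.0589, 0.117 and 0.0796, and its FDR ranged from 0.0108 to 0.117 over 15 alternative settings and passed in 8 of them.

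Of the 3 adenosine receptors among the 9 genes, *Adora3* alone differed by the FDR in MY vs. MO and in WO vs. MO. *Adora3*, a receptor that couples to inhibitory G proteins, was at 0.79, 0.92, 0.95, 0.97 and 0.84 in MO, 0.49, 0.58 and 0.49 in MY, 0.51, 0.48, 0.47, 0.47 and 0.35 in WO and 0.56, 0.46 and 0.46 in WY. No MO mouse overlapped any other mouse. The difference was 0.37 ± 0.0517 (SE) in MY vs. MO (limma FDR 0.00155) and 0.44 ± 0.0457 in WO vs. MO (limma FDR 7.74e-05). Adding 1 to FPKM shrinks the fold change of so low a gene. In FPKM the MO mean of *Adora3* was 1.98 times the MY mean and 2.31 times the WO mean, and with 0.1 added in place of 1 its log2 difference was 0.84 and 1.03, past both thresholds.

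*Adora1*, which lowers transmitter release from neurons, was at 5.56, 5.51, 5.64, 5.65 and 5.70 in MO, 5.75, 5.71 and 5.69 in MY, 5.72, 5.61, 5.63, 5.67 and 5.62 in WO and 5.63, 5.71 and 5.67 in WY. *Adora2a*, which raises cyclic AMP, was at 0.36, 0.30, 0.53, 0.51 and 0.67 in MO, 0.47, 0.37 and 0.53 in MY, 0.55, 0.57, 0.62, 0.32 and 0.52 in WO and 0.61, 0.59 and 0.55 in WY. For *Adora1* MO1 and MO2 were below every MY and WO mouse while the other MO mice lay among the WO mice, and for *Adora2a* the MO mice were spread around the MY and WO mice. The log2 difference of *Adora1* was -0.11 (95% CI -0.22 to 0.01) in MY vs. MO and -0.04 (95% CI -0.13 to 0.06) in WO vs. MO, with limma FDRs of 0.167 and 0.580. That of *Adora2a* was 0.01 (95% CI -0.18 to 0.21) and -0.04 (95% CI -0.21 to 0.13), with limma FDRs of 0.930 and 0.736. For both receptors in WO vs. MO the sign differed between batches, at -0.08 in batch 1 and 0.03 in batch 2 for *Adora1* and at -0.18 and 0.16 for *Adora2a*.

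The ectonucleotidases at the start and the end of the path to adenosine differed in their results. *Entpd1* (CD39), which converts ATP and ADP to AMP, was at 2.87, 2.69, 2.68, 2.51 and 2.71 in MO, 2.08, 2.03 and 2.04 in MY, 2.25, 1.98, 2.14, 1.88 and 1.91 in WO and 2.20, 2.07 and 2.00 in WY. Every MO mouse lay above the highest other mouse, WO1. *Entpd1* rose by 0.64 ± 0.0712 (SE; 95% CI 0.48 to 0.80) from MY to MO with a limma FDR of 0.000628, and by 0.66 ± 0.0831 (95% CI 0.47 to 0.84) from WO to MO with a limma FDR of 0.000247. Taken as FPKM at the group mean of the log2 values, *Entpd1* in MO was 1.74 times that in MY and 1.76 times that in WO. Both intervals reach below the fold change threshold of 0.585 on the log2 scale, and with quantile normalization the change from MY to MO was 0.575.

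*Nt5e* (CD73), which converts AMP to adenosine, was at 1.58, 1.54, 1.57, 1.70 and 1.48 in MO, 1.83, 1.68 and 1.69 in MY, 1.60, 1.54, 1.64, 1.66 and 1.72 in WO and 1.58, 1.87 and 1.58 in WY. MO overlapped with both other groups. The log2 difference of *Nt5e* was -0.16 (95% CI -0.30 to -0.03; limma FDR 0.0799) in MY vs. MO and -0.06 (95% CI -0.17 to 0.05; limma FDR 0.410) in WO vs. MO. In MY vs. MO it passed the FDR without MO4 (limma FDR 0.0322) and with quantile normalization (limma FDR 0.0126), in 2 of 15 alternatives, whose FDRs reached 0.291. With quantile normalization it also passed in WO vs. MO, at -0.16 (limma FDR 0.0467), in 1 of 17 alternatives, whose FDRs reached 0.761.

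Counted over the mice with no test, 5 of the 9 genes (*P2rx4*, *P2rx7*, *P2ry6*, *Adora3* and *Entpd1*) had every MO mouse above all 11 mice of the other groups, against 7.58% of all genes. By direction, the 2 genes past both thresholds were higher in MO, against 4.11% of all genes higher and 0.787% lower in MY vs. MO, and 4.08% higher and 0.517% lower in WO vs. MO. By the FDR alone 5 genes were higher and 1 was lower in each comparison. Over all genes 13.1% were higher and 12.5% lower in MY vs. MO, and 15% higher and 12.9% lower in WO vs. MO. The median log2 difference of the 9 genes was 0.37 in MY vs. MO and 0.37 in WO vs. MO, beside medians of 0.0047 and 0.00035 over all 18167 genes.

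The differences in WO vs. MO were present in each batch for the 6 genes past the FDR. In batch 2 the WO mice were of 294 days and the MO mice of 224 and 175 days, so age and genotype cannot be told apart there. *P2ry6* differed by 1.35 among the 3 WO and 3 MO mice of batch 1 and by 1.53 among the 2 and 2 of batch 2, and *Entpd1* by 0.62 and 0.71. The corresponding log2 differences were 0.36 and 0.39 for *P2rx4*, 0.45 and 0.48 for *P2rx7*, 0.40 and 0.50 for *Adora3*, and -0.19 and -0.34 for *P2ry1*. The signs of these 6 genes were the same in both batches. Among the batch 1 mice alone, *P2rx4* and *P2ry1* no longer passed in WO vs. MO, with limma FDRs of 0.0659 and 0.231. Within batch 1, MY vs. MO gave 1.26 for *P2ry6* and 0.70 for *Entpd1*, and batch 2 held no MY mouse. Without MO5, *P2ry6* differed by 1.20 in MY vs. MO and 1.41 in WO vs. MO, and *Entpd1* by 0.64 and 0.65. The counts of 2 genes past both thresholds in each comparison were as large without it. For the genes past the FDR alone, the WO vs. MO differences without MO5 were 0.38 for *P2rx4*, 0.44 for *P2rx7*, 0.45 for *Adora3* and -0.23 for *P2ry1*, and those in MY vs. MO 0.42, 0.47, 0.39 and -0.16, all again past the FDR by limma.

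Whether the change from young to old mice differed between genotypes was tested as (MO - MY) - (WO - WY) in 1 limma fit of all 16 mice. *P2ry6* and *Entpd1* passed both thresholds, at 1.30 ± 0.166 (SE; limma FDR 0.000140) and 0.70 ± 0.122 (limma FDR 0.00124). By the FDR alone *P2rx4* at 0.39, *P2rx7* at 0.46 and *Adora3* at 0.41 also differed, with limma FDRs of 0.0170, 0.00648 and 0.00102. Without WY1 the limma FDR of *P2rx4* was 0.0516, and in batch 1 mice alone it was 0.0709. *P2ry1* did not pass, at -0.19 with a limma FDR of 0.196, but passed without WO1, at -0.25 with a limma FDR of 0.0308. Over all genes 5.61% passed both thresholds, 4.65% with a positive sign, and 17.7% passed the FDR alone, 10.5% with a positive and 7.19% with a negative sign. Among the 9 genes, 2 passed both thresholds and 5 the FDR alone, each with a positive sign, and without MO5 the count past both thresholds was also 2. MO differs from MY in age as well as in stage of disease, and these cannot be told apart in MY vs. MO or in (MO - MY) - (WO - WY).

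Neither age in wild-type mice nor genotype in young mice gave a call. In WY vs. WO, 0 of the 9 genes passed both thresholds or the FDR alone by limma, against 0.253% and 1.12% of all genes, and 0 had an unadjusted p under 0.05. The differences ranged from -0.09 for *P2ry6* to 0.03 for *P2rx7*. In WY vs. MY, 0 of 9 passed by limma, against 0.0055% of all genes by both thresholds and 0.0055% by the FDR alone, and 1 had an unadjusted p under 0.05. That gene was *P2ry6*, higher in the MY mice than in any WY mouse, though MY1 and WY1 were nearly equal, by 0.13 ± 0.0499 (SE; 95% CI 0.00 to 0.25) with a limma FDR of 0.692. *Entpd1* differed by -0.04 (95% CI -0.18 to 0.10) between the young groups and *P2rx7* by 0.00 (95% CI -0.20 to 0.20), so a difference of the size seen at end stage lies outside these intervals.

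The rest of the pathway was a list of 43 genes in 8 classes, of which 41 were in the table and *Entpd4* and *Calhm1* were not. By both thresholds 1 was higher and 1 lower in each of the end-stage comparisons, so 2 of 41, of which 3 were below 0.05 in every mouse, near the 4.9% and 4.6% of all genes. In MY vs. MO these were *Ada*, which deaminates adenosine, at 0.65 ± 0.189 (SE; limma FDR 0.0366), and *Enpp1*, which cleaves extracellular ATP to AMP and pyrophosphate, at -0.82 ± 0.149 (limma FDR 0.00523). In WO vs. MO they were *P2ry13*, a receptor for ADP, at 0.76 ± 0.0653 (limma FDR 2.74e-05), and again *Enpp1*, at -0.68 ± 0.130 (limma FDR 0.00301). By the FDR alone 7 genes were higher and 9 lower in MY vs. MO, 16 of 41 beside 25.6% of all genes, and 10 higher and 11 lower in WO vs. MO, 21 of 41 beside 27.9%. Without MO5 the counts by the FDR alone were 6 and 8 in MY vs. MO and 8 and 9 in WO vs. MO. Their median log2 difference was 0.02 and 0.02. In WY vs. WO and in WY vs. MY, 0 of 41 passed the FDR by limma, and 10 and 6 had an unadjusted p under 0.05.

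*P2ry13* was at 3.05, 3.29, 3.19, 2.94 and 3.11 in MO and 2.34, 2.47, 2.36, 2.25 and 2.36 in WO, with no overlap, and at 0.583 in MY vs. MO it lay just under the fold change threshold (limma FDR 0.00117). It passed that threshold in 8 of 15 alternatives: without MO1 (0.599), MO4 (0.628), MO5 (0.585) or MY2 (0.609), at 0.645 in batch 1 mice only, with batch as a term and with the replicate block, and at 0.668 with a pseudocount of 0.1. *Enpp1* was at 1.52, 1.68, 1.95, 2.26 and 1.95 in MO, 2.37, 2.41, 2.59, 2.71 and 2.70 in WO and 2.78, 2.64 and 2.67 in MY. Every MO mouse was below every other mouse for *Enpp1*. *Ada* was at 2.18, 1.47, 1.69, 1.34 and 2.02 in MO, 1.89, 1.21, 1.14, 1.23 and 0.93 in WO and 0.96, 1.10 and 1.23 in MY, and its values were widely spread in MO and WO. *Ada* in MY vs. MO was no longer past both thresholds without MO5, at 0.577 (limma FDR 0.0684), and the call was also lost without MO1 (0.54), MO3 (0.66), MY1 (0.58), MY2 (0.65) or MY3 (0.71), in all in 10 of 15 alternatives.

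**Figure D2:**
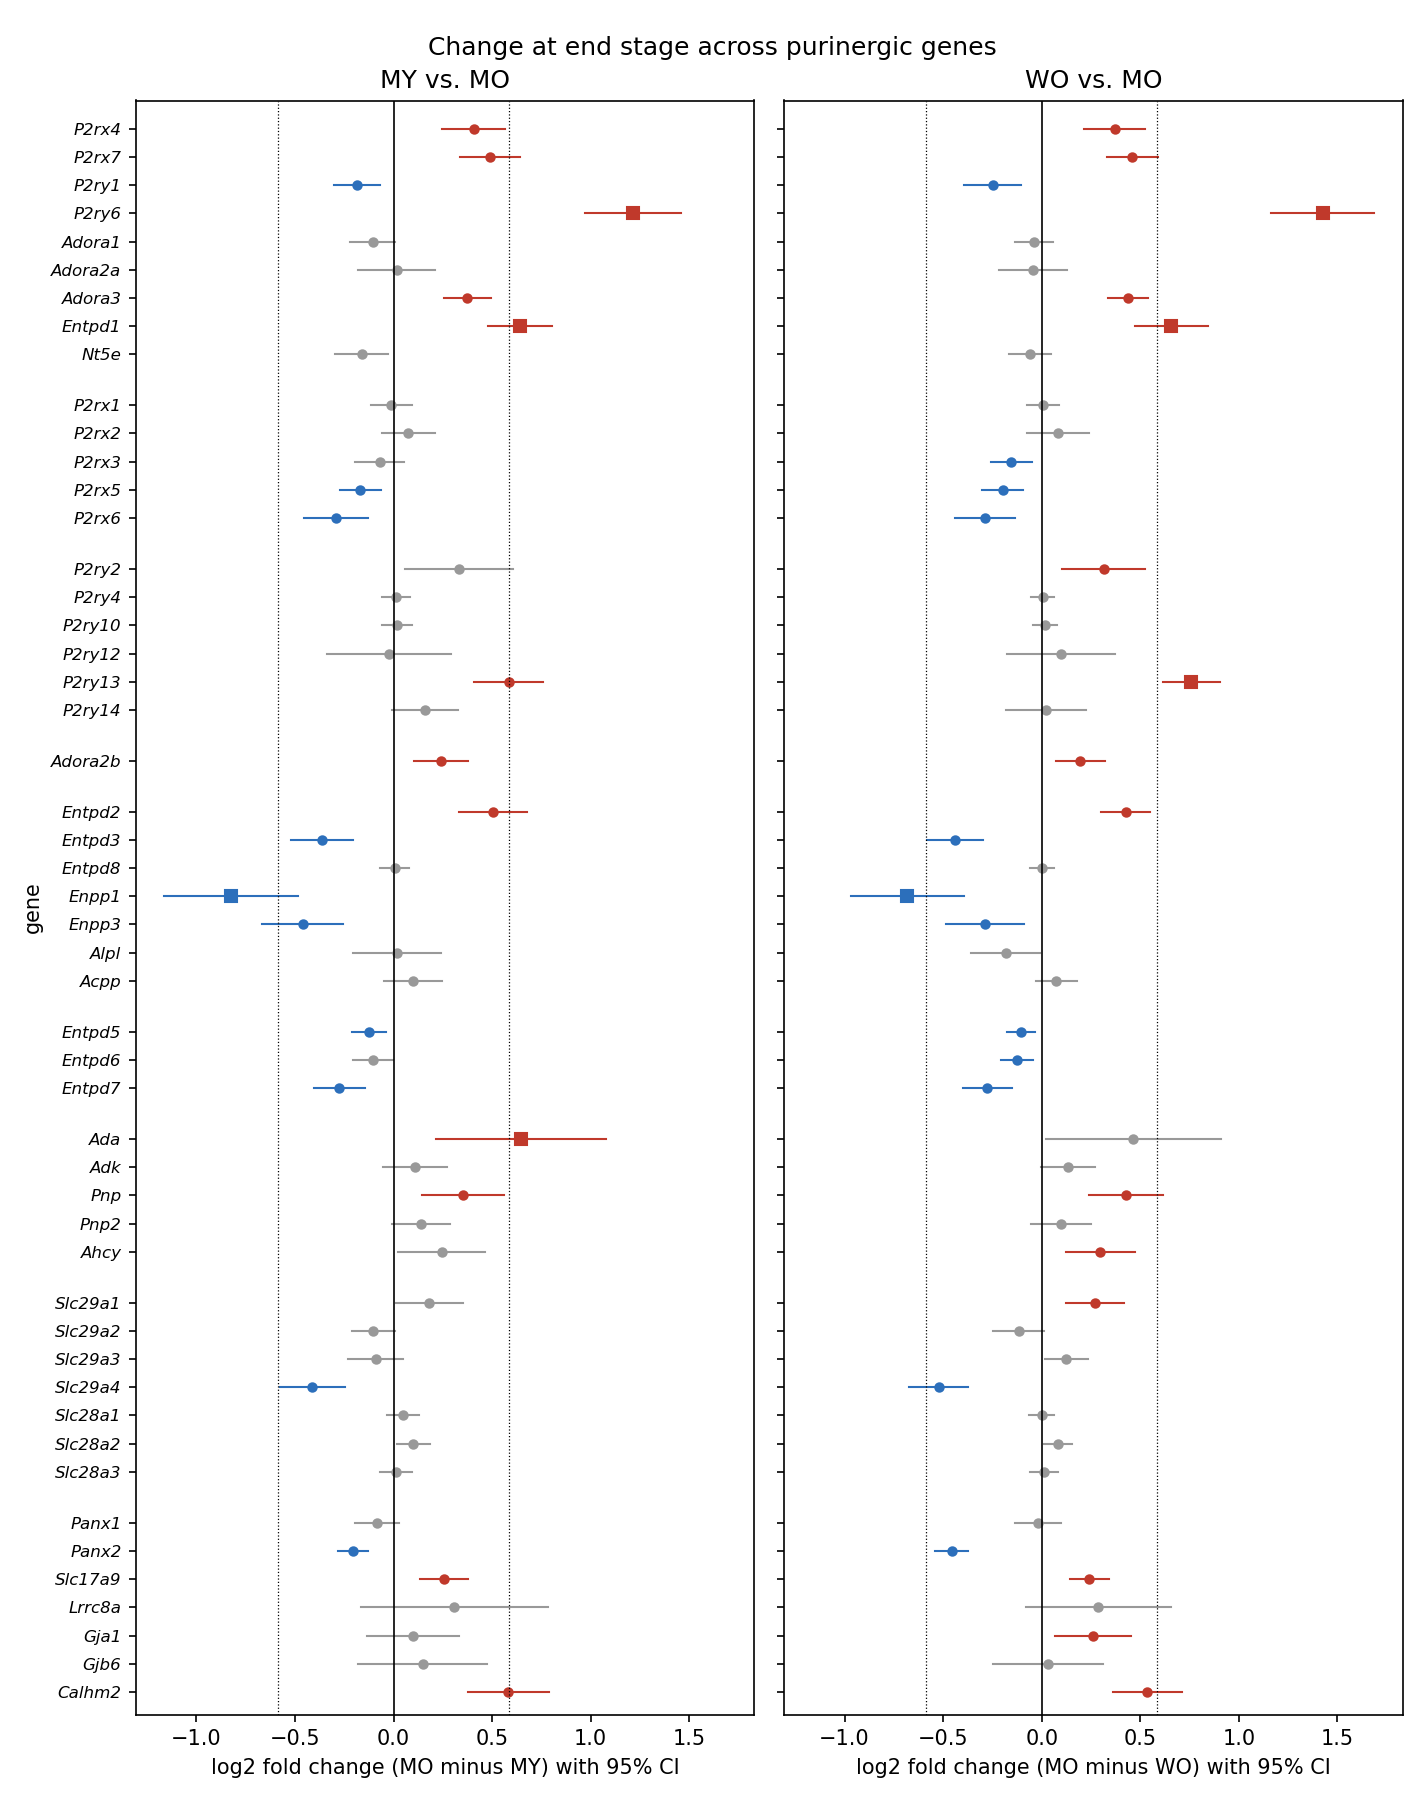
Log2 fold change (x axis) with 95% CI of the 9 genes (top block) and of 41 other purinergic genes in their classes (lower blocks, y axis), for MO minus MY (left) and MO minus WO (right). Red and blue mark genes higher and lower by the FDR, grey genes that did not pass, squares genes past both thresholds and dotted lines the fold change threshold; *P2ry6* has the largest increase and *Enpp1* the largest decrease in both panels.

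By class, the other P2X receptors included 0 genes higher and 3 of 5 lower by the FDR in WO vs. MO, and 2 of 5 without MO5. Over all genes and mice the shares were 15% higher and 12.9% lower. *P2rx5*, the most abundant of them, was lower at -0.20 (limma FDR 0.00983, and 0.0697 in batch 1 mice alone), opposite in sign to *P2rx4* and *P2rx7*. Among the other P2Y receptors 2 of 6 were higher in WO vs. MO, 1 of 6 without MO5, and *P2ry12*, the most abundant and a receptor for ADP known from microglia, did not pass at 0.10 (95% CI -0.18 to 0.37; limma FDR 0.623). *P2ry12* was at 3.72, 4.34, 3.79, 4.19 and 3.97 in MO and 3.74, 4.13, 4.03, 3.84 and 3.79 in WO, so the groups overlapped. *Adora2b*, the remaining adenosine receptor, was higher at 0.20 (limma FDR 0.0233). That call held in 11 of 17 alternatives and was lost without MO2, MO3, MO4, WO3 or WO5, with limma FDRs of 0.0515 to 0.0614, and in batch 1 mice alone (limma FDR 0.127).

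The other ectonucleotidases divided, with 1 of 7 higher and 3 of 7 lower in WO vs. MO, 2 of 7 lower without MO5. *Entpd3*, the most abundant and an enzyme of the same family as *Entpd1*, was lower at -0.44 (limma FDR 0.000573), with MO mice at 3.83, 3.69, 3.91, 3.98 and 3.94 below all WO mice at 4.43, 4.23, 4.20, 4.31 and 4.36. All 3 intracellular relatives in the table were lower in WO vs. MO, *Entpd6* at -0.13 (limma FDR 0.0251), whose call held in 10 of 17 alternatives and was lost without MO2, WO1, WO4 or WO5, with limma FDRs of 0.0543 to 0.0668 and up to 0.192 over all alternatives. Of the enzymes that remove adenosine 2 of 5 were higher, and *Adk*, the adenosine kinase, did not pass at 0.13 (limma FDR 0.135) except without MO1, at 0.18 (limma FDR 0.0237), in 1 of 17 alternatives, whose FDRs reached 0.623. Of the nucleoside transporters 1 of 7 was higher and 1 lower, the latter *Slc29a4* at -0.52 (limma FDR 0.000281). Of the genes of ATP release and vesicular loading 3 of 7 were higher and 1 lower, with 2 of 7 higher without MO5. *Gja1*, connexin 43, was at 0.26 (limma FDR 0.0491) and passed in 5 of 17 alternatives, with limma FDRs up to 0.135. It was lost without MO1, MO2, MO5, WO1, WO2, WO3 or WO5, at limma FDRs of 0.0582 to 0.107.

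Markers of cell types also differed in the end-stage comparisons, and some differed in WY vs. WO, where 0 of the 9 genes passed. Lower by the FDR in WY vs. WO were 3 of 6 oligodendrocyte, 2 of 7 astrocyte and 1 of 4 Schwann cell markers. So was 1 of 6 markers of microglia at rest, beside 1.12% of all genes past the FDR. Of these, 1 oligodendrocyte, 1 astrocyte and 1 microglia marker passed both thresholds. In WY vs. MY 0 of 6 endothelial markers passed by limma, with 5 at an unadjusted p under 0.05. All 5 microglia markers named by the study were higher by both thresholds in both end-stage comparisons: in WO vs. MO *Cd68* by 3.22, *Itgax* by 3.05, *Ptprc* by 1.68, *Cx3cr1* by 1.14 and *Itgam* by 0.99 (limma FDR 0.000431 or lower). The summed FPKM of these 5 was 91.6, 122.5, 179.7, 79.6 and 98.5 in MO1 to MO5, 25.5, 25.8, 25.8, 20.2 and 19.9 in WO, 24.5, 26.7 and 25.3 in MY and 26.6, 27.5 and 23.5 in WY. Without MO5 all 5 were past both thresholds as well. *Cx3cr1* had the highest mean log2 value of the 5 over all 16 mice, while in every MO mouse *Cd68* was above it. Of 6 other markers, genes known from microglia at rest, 5 were higher by the FDR in WO vs. MO, 3 of them past both thresholds, and 4 in MY vs. MO, all past both. Without MO5 these counts were 4 and 3 in WO vs. MO and 4 and 3 in MY vs. MO. *Csf1r*, the most abundant of the 6, rose by 1.28, and their summed FPKM was 136.1, 175.0, 177.8, 138.0 and 149.1 in MO and 57.5 to 74.1 in WO. The part of microglia in the changes of *P2ry6*, *Entpd1*, *P2rx4*, *P2rx7* and *Adora3* was not tested.

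Astrocyte markers were higher by the FDR in 5 of 7 in WO vs. MO, with *Gfap* the most abundant at 1.60 and summed FPKM of 3300.7 to 4289.7 in MO and 1775.8 to 1981.0 in WO. Neuron markers were lower in 3 of 5, with *Snap25* at -0.41 and summed FPKM of 1539.0 to 1739.3 in MO and 1962.0 to 2193.0 in WO, and motor neuron markers in 3 of 5, with *Chat* at -0.67 and summed FPKM of 13.04 to 16.1 and 21.6 to 23.8. Endothelial markers were lower in 5 of 6 in WO vs. MO but by limma in 0 of 6 in MY vs. MO, where 1 had an unadjusted p under 0.05. *Cldn5*, the most abundant, did not pass at -0.40 (limma FDR 0.115) but passed without WO4, at -0.55 (limma FDR 0.0173), in 1 of 17 alternatives, with limma FDRs up to 0.215. Summed FPKM of the endothelial markers was 43.6 to 51.1 in MO and 68.1, 67.4, 71.0, 48.9 and 67.9 in WO, so WO4 alone lay among the MO mice. Oligodendrocyte markers were lower in 2 of 6, with summed FPKM of 6893.7, 7372.3, 7514.2, 21859.2 and 21233.8 in MO and 10005.6, 9261.7, 9277.0, 5021.2 and 23675.8 in WO, where MO4, MO5 and WO5 of batch 2 stood above and WO4 below every batch 1 mouse of these groups. *Mbp*, the most abundant, was at 1.55 in WO vs. MO (limma FDR 0.479) and -0.02 in MY vs. MO (limma FDR 0.982), but in batch 1 mice alone it passed at -0.32 (limma FDR 0.0242) and -0.80 (limma FDR 0.000212), with the sign in WO vs. MO turned. The WO mean behind the 1.55 holds WO4 at 5.36. The other WO mice were at 12.42 to 14.22 and the MO mice at 12.16 to 14.14. The oligodendrocyte markers were lower in 4 of 6 in MY vs. MO, 3 of them past both thresholds, with a median of -0.60. In WY vs. WO 3 of 6 were lower by the FDR, 1 of them past both thresholds, also with a median of -0.60. In the age-by-genotype difference 0 of 6 passed by limma, with 2 at an unadjusted p under 0.05. Markers of their precursors were lower in 1 of 4, which was *Olig1* at -0.33 (limma FDR 0.0499, passed in 7 of 17 alternatives, and up to 0.112). *Pdgfra* and *Cspg4* had the opposite sign, at up to 0.17, and did not pass the FDR. Summed FPKM of the 4 was 130.4 to 187.4 in MO and 181.8 to 204.2 in WO, of which *Olig1* alone was 84.4 to 132.3 and 122.3 to 143.9. Of 5 sensory neuron markers 2 were higher, with *Calca*, the most abundant, at 1.38, and 1 was lower, which was *P2rx3*. Summed FPKM was 75.0 to 194.9 in MO and 37.0 to 52.1 in WO. Nearly all of it was *Calca*, alone at 73.6 to 193.6 in MO and 36.1 to 50.9 in WO, so the sum describes 1 gene. *Scn10a* and *Trpv1* were at no more than 0.0119 and 0.0859 FPKM in any mouse. The *Olig1* call was lost without MO1, MO2, MO3 or any 1 WO mouse, with limma FDRs of 0.0602 to 0.112. The FDR was passed in MY vs. MO by 4 of 7 astrocyte markers and 2 of 5 sensory neuron markers, all higher, and by 3 of 5 neuron, 3 of 5 motor neuron and 2 of 4 precursor markers, all lower. Without MO5, WO vs. MO had 4 of 6 endothelial and 1 of 6 oligodendrocyte markers lower and the sensory neuron marker no longer lower, and MY vs. MO had 5 of 6 oligodendrocyte markers lower, 4 of them past both thresholds. *P2rx3* is in both the sensory neuron and the P2X lists, and *Gjb6* in both the astrocyte and the ATP release lists. The part of these cell types in the changes of the purinergic genes was not tested.

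Markers of monocytes, T cells and B cells were low. Summed FPKM in MO was 0.277 to 0.677 over 4 monocyte markers, 0.266 to 0.627 over 5 T cell markers, 0.440 to 0.883 over 2 B cell markers and 0.903 to 8.44 over 6 neutrophil markers. In WO it was 0.138 to 0.768, 0.0430 to 0.192, 0.101 to 0.554 and 3.52 to 37.4. The neutrophil value of 37.4 was that of WO2, and the other WO mice were at 3.52 to 8.47. By limma 0 of 4 monocyte and 0 of 6 neutrophil markers passed the FDR in WO vs. MO, with 1 of each at an unadjusted p under 0.05. Of the T cell markers 2 of 5 and of the B cell markers 1 of 2 were higher, at low levels: *Cd3g* was at 0.28, 0.25, 0.08, 0.21 and 0.37 in MO and *Cd79b* at 0.62, 0.63, 0.46, 0.70 and 0.60. The *Cd3g* call held in 15 of 16 alternatives, with limma FDRs up to 0.217. Its difference of 0.21 was lowest in batch 1 mice alone, at 0.15. Of batch 2, WO4 and WO5 were at -0.02, a value below 0 that log2(1 + FPKM) itself cannot take. The other B cell marker in the table had the opposite sign in WO vs. MO, at -0.17, an unadjusted p under 0.05 and no pass of the FDR by limma. Without MO5 1 of 5 T cell markers was higher. Border macrophage markers were higher in 2 of 4, with *Pf4*, the most abundant, not past the FDR at 0.34 and summed FPKM of 1.86 to 2.69 in MO and 0.895 to 1.91 in WO. By limma 0 of 4 red blood cell, 0 of 4 Schwann cell and 0 of 5 meningeal fibroblast markers passed in WO vs. MO, with 1, 0 and 0 at an unadjusted p under 0.05, though 2 of the red blood cell markers were close to 0 in all 16 mice, so that count rests on 2 genes. Of the muscle markers 1 of 4 was lower, though by limma 0 of 4 without MO5, with 2 at an unadjusted p under 0.05. Summed FPKM in MO was 11.7 to 64.4, 61.2 to 98.0, 14.9 to 18.5 and 1.41 to 3.01, and in WO 61.1 to 96.8, 74.2 to 79.9, 12.97 to 18.2 and 2.56 to 3.47. Of those lists the most abundant genes *Hba-a1*, *Pmp22*, *Dcn* and *Mylpf* differed by -0.89, -0.01, 0.03 and -0.15, and *Ly6c2* and *S100a9* of the monocyte and neutrophil lists by 0.15 and -0.89. These values depended on the setting. Over 17 alternatives they ranged from -1.05 to -0.45, -0.11 to 0.08, -0.21 to 0.11 and -0.26 to -0.00386 for the first 4 genes. *S100a9* ranged from -1.33 to -0.46, and *Ly6c2* over 16 alternatives from 0.11 to 0.71. Without MO1, *Pf4* at 0.47 and *Ly6c2* at 0.20 passed the FDR by limma, as *S100a9* did with the replicate block, each in 1 alternative.

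The genes whose values over the 16 mice were most like those of *P2ry6*, by mean absolute difference after centring, were *Unc93b1* (0.083), *Arhgap25* (0.0865) and *Tnfrsf1a* (0.0928). *Unc93b1* rose by 1.36 in WO vs. MO, *Arhgap25* by 1.36 and *Tnfrsf1a* by 1.35, beside 1.43 for *P2ry6*. The genes most like *Entpd1* were *Ano6* (0.0533), *Mcl1* (0.0634) and *Pabpc1* (0.0657), which rose by 0.62, 0.64 and 0.63. Without MO1 *Ano6* was at 0.582, just under the fold change threshold. These measures were chosen on all 16 mice and carry no test.

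The genes lie on several chromosomes of GRCm38. *P2rx7* (chr5:122643911-122691432) and *P2rx4* (chr5:122707544-122729738) are neighbours on the plus strand with 16111 bases between them, and both were higher in MO. *P2ry6* lies at chr7:100937630-100974649 on the minus strand and *Entpd1* at chr19:40612366-40741602 on the plus strand. *Adora1* (chr1:134199223-134235431, minus strand), *P2ry1* (chr3:61002795-61008982), *Nt5e* (chr9:88327197-88372092) and *Adora2a* (chr10:75316877-75334784) lie apart from them. *Adora3* (chr3:105870858-105908926) overlaps *Tmigd3* on the same strand, so reads could be shared between them. *Entpd1* overlaps 3 genes and *P2rx7* overlaps 1 on their own strands too, so the same holds for them. *P2ry6*, *P2ry1* and *Adora1* each overlap a gene on the other strand, and although the libraries were stranded, whether counting used strand was not given in the sources used here, so their values may hold reads of those genes.

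Because 5 of the genes were higher in the same mice, their promoters were read from RefSeq sequences of GRCm38.p6, 300 bases from 250 before to 50 after a gene start. *P2ry6* and *Adora2a* had none in the table used, and the other 7 genes had 10 windows. The motifs searched on both strands were 6, all chosen after the expression values were seen. GAGGAAG was in 3 of the 10 windows and in 13.6% of 32851 promoters of the same length, and GAGGAA, which is part of it, in 4 windows and 28.3% of promoters. AGGAAGT was in 3 windows and 9.35% of promoters, and GGAAGT, which is part of it, in 4 windows and 23.8%. These 4 motifs overlap one another and hold the core GGAA bound by Ets factors. TGAGTCA, the AP-1 core, was in 2 windows and 5.2% of promoters. GGGAAAGT was in 0 windows and 1.59% of promoters. Of the windows, 5 held none, among them the only window of *P2rx4* and those of *Nt5e* and *P2ry1*. *Adora1*, which did not pass the FDR, also held AGGAAGT in 1 window. A match is a description of the letters and not of binding. The windows that held GAGGAAG are shown for *Adora3* (chr3:105904171-105904470, plus strand), the later start of *P2rx7* (chr5:122650133-122650432, plus strand) and the later start of *Entpd1* (chr19:40659520-40659819, plus strand), each over an exon of its own gene by GENCODE M21, that of *Adora3* also within *Tmigd3*, with capitals for every base of a match to any of the 6 motifs on either strand.
Adora3: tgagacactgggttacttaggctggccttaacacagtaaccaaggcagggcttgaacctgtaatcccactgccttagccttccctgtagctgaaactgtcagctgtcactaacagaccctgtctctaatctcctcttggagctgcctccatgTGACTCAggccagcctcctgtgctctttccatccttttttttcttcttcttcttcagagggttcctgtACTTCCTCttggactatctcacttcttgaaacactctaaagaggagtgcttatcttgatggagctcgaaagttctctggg
P2rx7: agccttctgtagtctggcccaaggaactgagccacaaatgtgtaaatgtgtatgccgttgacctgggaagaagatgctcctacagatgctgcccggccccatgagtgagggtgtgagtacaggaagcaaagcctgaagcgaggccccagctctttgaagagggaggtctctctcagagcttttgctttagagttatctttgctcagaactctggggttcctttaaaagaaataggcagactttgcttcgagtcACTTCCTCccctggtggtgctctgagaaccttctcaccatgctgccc
Entpd1: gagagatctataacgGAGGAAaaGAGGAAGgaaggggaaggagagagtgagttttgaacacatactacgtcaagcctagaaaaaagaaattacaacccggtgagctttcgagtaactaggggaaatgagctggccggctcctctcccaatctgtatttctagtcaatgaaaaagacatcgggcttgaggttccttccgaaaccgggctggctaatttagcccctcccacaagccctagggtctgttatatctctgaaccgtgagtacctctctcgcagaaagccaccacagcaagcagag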

How the data were processed

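Spinal cord libraries of 16 mice were grouped by genotype and age from the labels. The deposited log2 values were made by the authors: Trimmomatic trimmed the reads, TopHat placed them on mm10, Cufflinks gave FPKM, genes at 0 in many mice were removed, and log2(1 + FPKM) was adjusted for batch with ComBat. Tool versions, the annotation and the ComBat covariates were not given in the sources used here. Batch 2 holds MO and WO mice only, so differences between groups in the adjusted values, those of MY vs. MO and WY vs. WO above all, may depend on covariates that are not known. With no count of fragments per gene in the table, the spread among mice of a group gave the precision.

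Each pair of groups was fitted alone with limma 3.58.1 in R 4.3.3, two-sided and with its default settings, on 18167 genes, second group minus first, with Benjamini-Hochberg adjustment over all of them. Python 3.11.15, pandas 2.3.3, NumPy 2.4.6 and matplotlib 3.10.9 were also used. The fits were also tested on simulated data. No libraries were copies, since at most 1.43% of values were identical in a pair of mice.

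Named were the 9 genes, purinergic genes called in any comparison, the most abundant gene of each class and of each marker list reported, the study's microglia markers and the 3 genes most like each called gene with a mean of at least 1. The genes, lists and rules were chosen with earlier results of these data known, and 1 marker was left out of its list for a reason other than its values. The call by the FDR alone, the count of genes with every MO mouse above all others, the promoter motifs and the use of results by direction were chosen after the values were seen. Alternatives were batch 1 mice only, batch as a term, all 4 groups in 1 fit, a minimum mean of 1, quantile normalization, a pseudocount of 0.1, blocking by replicate number, and leaving out each mouse.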

Additional observations from a re-analysis of the deposited data

Results flagged for a closer look

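Among the 48 named genes, 96 groups of 5 mice were examined for a single mouse far from the rest, where chance alone marks about 1 group in 20. There were 7 such values, in 6 mice, each with its gap to the nearest mouse above 0.71 of the range of its group. Of the 9 genes, *P2rx4* was at 4.18 in MO3, above the other MO mice, and *Adora3* was at 0.35 in WO5, below the other WO mice. *P2rx5* was at 3.07 in MO5, the highest of MO. The rest were *Mbp* at 5.36 and *Cldn5* at 3.94 in WO4, *Hba-a1* at 3.60 in MO1 and *Mylpf* at 1.99 in WO3. The oldest MO mouse, MO3, also had the highest *P2ry6* and *P2rx7* in MO.

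The change from young to old mice differed between mutant and wild-type mice for 5 of the 9 genes, by limma over all genes at an FDR of 0.05, beside 17.7% of all genes. These were *P2rx4* (0.39 on the log2 scale), *P2rx7* (0.46), *P2ry6* (1.30), *Adora3* (0.41) and *Entpd1* (0.70). In mutant mice the change holds stage of disease as well as age, and these cannot be told apart. The change also differed with a positive sign for *P2ry13* (0.73) and *Adora2b* (0.43), and with a negative sign for *Enpp1* (-0.63), *P2rx5* (-0.28), *Entpd3* (-0.47), *Entpd6* (-0.20) and *Slc29a4* (-0.57). Only genes of the naming rule are listed, and over all 41 other purinergic genes 7 were positive and 7 negative by the FDR, beside 10.5% and 7.19% of all genes. *Slc29a4* was past both thresholds in 9 of 22 alternatives, among them without MO3 (-0.60), MO4 (-0.59), MO5 (-0.59), MY3 (-0.60), WO3 (-0.60) or WY3 (-0.60). *Enpp1* lost its place past both thresholds without any 1 of 8 mice, MO1, MO2, MY1, MY3, WO4, WO5, WY1 and WY3, at values from -0.54 to -0.64. *Enpp1* and *P2rx5* each passed the FDR alone in 16 of 22 alternatives, with limma FDRs up to 0.0784 and 0.0885, and *Entpd6* in 20 of 22, up to 0.0738.

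Of the named markers, the difference was positive for *Cd68* (3.49), *Itgax* (3.12), *Gfap* (1.80), *Ptprc* (1.59), *Calca* (1.51), *Csf1r* (1.15), *Cx3cr1* (1.10), *Itgam* (0.87) and *Cd79b* (0.31), and negative for *Chat* (-0.85) and *Snap25* (-0.50). The call of *Cd79b*, at a limma FDR of 0.0482, held in 3 of 21 alternatives, without MO3, MY1 or WO3, and was lost without each of the other 13 mice, MO5 among them (limma FDR 0.0647), with FDRs up to 0.221, and that of *Itgam* was lost in batch 1 mice alone (limma FDR 0.0569). The difference was also positive for the genes most like *P2ry6* and *Entpd1*, which were chosen on the same mice: *Unc93b1* (1.37), *Tnfrsf1a* (1.34), *Arhgap25* (1.32), *Mcl1* (0.65), *Pabpc1* (0.63) and *Ano6* (0.60).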

How the results depend on the processing

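The count of the 9 genes past both thresholds was 2 in WO vs. MO and in the age-by-genotype difference and 0 in WY vs. WO and WY vs. MY under the alternatives run, apart from a count of 3 with a pseudocount of 0.1, where *Adora3* was added. In MY vs. MO it was 1 with quantile normalization, where *Entpd1* was at 0.58, and 2 to 3 under the others. Leaving out each mouse gave 2 in each end-stage comparison. Of the 41 other purinergic genes, the count in MY vs. MO was 4 in batch 1 mice only, 1 with all 4 groups in 1 fit, 1 with quantile normalization and 7 with a pseudocount of 0.1, where all genes gave 1099, 897, 840 and 1483, against 890. Leaving out single mice gave 1 to 4, with 1 without MO3, 4 without MO4 and 1 without MY3, where all genes gave 837, 1011 and 807. In WO vs. MO it was 6 with a pseudocount of 0.1, where all genes gave 1529 against 836, and 2 to 3 when single mice were left out. By the FDR alone, a rule added after the data were seen, the count of other purinergic genes was 10 in WO vs. MO in batch 1 mice only, where all genes gave 2612 against 5075. In WY vs. WO it was 1 with batch as a term and 1 with all 4 groups in 1 fit, where all genes gave 294 and 190, against 204. The batch 1 fit has fewer mice; the cause of the other shifts was not tested. By the FDR alone the 9 genes gave 5 to 7, 6 and 4 to 6 in MY vs. MO, WO vs. MO and the age-by-genotype difference when single mice were left out. No value past both thresholds changed sign.

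With the replicate number as a replicate block, the counts of the 9 genes were 2 in MY vs. MO, 2 in WO vs. MO, 2 in the age-by-genotype difference and 0 in both others. In MY vs. MO the block leaves MO4 and MO5 without a partner, so its fold changes equal those of batch 1 mice only. All genes past both thresholds there numbered 890, 1108 with the block and 1099 in batch 1 mice only, and past the FDR alone 4646 and 3746 with the block, which gave 5 of the 9 genes and 13 of the 41 there, against 6 and 16. The correlations of same-numbered mice in MY vs. MO were 0.177, 0.0853 and 0.151, each mouse correlating best with its own number, while in the other comparisons not all did. Batch as a term could not be fitted in WY vs. MY, whose mice are all of batch 1.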

Other observations

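Of the 41 other purinergic genes, *P2ry13*, *Entpd2*, *Pnp*, *Slc17a9* and *Calhm2* had every MO mouse above all others, beside 7.58% of all genes. *P2rx6*, *Entpd3*, *Enpp1*, *Entpd5*, *Slc29a4* and *Panx2* had every MO mouse below all others, for which the share over all genes was not counted. Those described next were picked after their values were seen. *Entpd2*, an ectonucleotidase, was at 3.81, 4.07, 4.08, 3.92 and 3.99 in MO and 3.59, 3.46, 3.57, 3.59 and 3.53 in WO, higher in WO vs. MO at 0.42 (limma FDR 0.000301). *Calhm2* was higher at 0.54 (limma FDR 0.000648) and *Slc17a9*, which loads ATP into vesicles, at 0.24 (limma FDR 0.00261). *Slc17a9* was low, at no more than 0.470 FPKM in any mouse. *Panx2* was lower at -0.46 (limma FDR 2.34e-05), with every MO mouse below every other mouse, and *P2rx6* at -0.29 (limma FDR 0.00999).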
